A study of Caenorhabditis elegans with 8 samples.

Results

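Whole-animal RNA of Caenorhabditis elegans carrying the hizr-1 loss-of-function allele am286 was compared with that of the wild-type strain N2 when both had been exposed to cadmium chloride. The comparison rests on 4 of the 8 libraries of the series, chosen by their genotype and treatment labels, with 2 libraries a genotype. The other 4 libraries, 2 of each genotype without cadmium, served to show which differences were also there without the metal. All cultures were mixed-stage populations grown for 4 days at 20 °C and then held for 16 to 18 h on fresh noble agar minimal plates, with a dense lawn of E. coli OP50 as food. In the labels' own unit, the exposed plates carried 100 mM cadmium chloride and the others 0 mM. The unit could not be checked here, and micromolar doses are usual for this animal. Each library came from 10 pooled plates of cultures grown in parallel, and the spread behind each p-value is that of such parallel cultures. A single allele was studied, described in the labels only as a loss of function in an N2 derivative.

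HIZR-1 is a nuclear receptor that binds zinc and switches on genes of the high zinc response, mainly in the intestine. Its known targets include metallothioneins, which are small cysteine-rich proteins that bind zinc and cadmium, and transporters that move zinc out of the cytoplasm. Cadmium resembles zinc chemically and is a strong inducer of the same genes. Hermaphrodites first make a store of sperm and then turn to oocytes. A mixed-stage culture holds embryos, larvae and adults, and its RNA is a mixture of germ line and body tissues. In such bulk RNA, fewer cells of a type and less RNA per cell cannot be told apart.

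Total counts were 27323411 and 21940131 for replicates 1 and 2 of the exposed wild type, and 29586507 and 19791267 for the exposed mutant. Genes of every somatic and germ line marker list were detected, as a whole-animal label implies. On the first axis of a multidimensional scaling plot, with 65.2% of the variation, the exposed wild-type replicate 1 stood farthest out, at 2.29. Replicate 2 of that group was at 1.22 and the exposed mutant at -0.85 and -0.89. On the second axis, with 9.9%, the unexposed mutant replicate 2 stood farthest out, at -1.05. The exposed wild-type replicate 1 also had the lowest level of sperm genes of all 8 libraries. What its removal does to the calls is given below.

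In the exposed cultures 674 of 15818 tested genes differed between the genotypes, which is 4.26% of all tested (edgeR's quasi-likelihood test, Benjamini-Hochberg adjusted p under 0.05). Calls are from this fit, over all 8 libraries with low counts filtered, unless another is named. Of these, 606 genes (3.83%) were higher in the mutant and 68 (0.43%) were lower, and in all of them the libraries of the 2 genotypes did not overlap. Both shares are the background for the counts of each list below. Without any test, the exposed groups were free of overlap with the mutant higher in 20.8% of genes and with the mutant lower in 15.7%. The 2 sets differed in level and in the lists that held some of their members. Of the lower genes 28 belonged to one of the lists used here, which include metal handling, detoxification, digestion and defence, and 40 to none. They had a median level of 10.7 CPM (read counts scaled to library size, here by the trimmed mean of M values, TMM) over the exposed libraries. The higher genes were mostly expressed at low levels, with a median of 1.305 CPM against 9.39 CPM for all tested genes, and 23 of them were in a sperm or spermatogenesis list. Log2 changes of the lower genes ran from -7.63 to -0.57 with a median of -1.31. Those of the higher genes had a median of 2.52, while the median over all tested genes was -0.0081. In replicates 1 and 2 of the exposed wild type the higher genes had a median level of 0.273 and 0.493 CPM. There 3 counts are 0.110 and 0.137 CPM, so many of these changes rest on few wild-type counts. Among the higher genes, 3 (Y116F11B.7, Y51A2B.4 and ttbk-2.2) had 0 counts in both exposed wild-type libraries, and against a floor of 3 counts a library they were at least 6.26-fold, 4.75-fold and 2.92-fold higher.

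**Figure D1:**
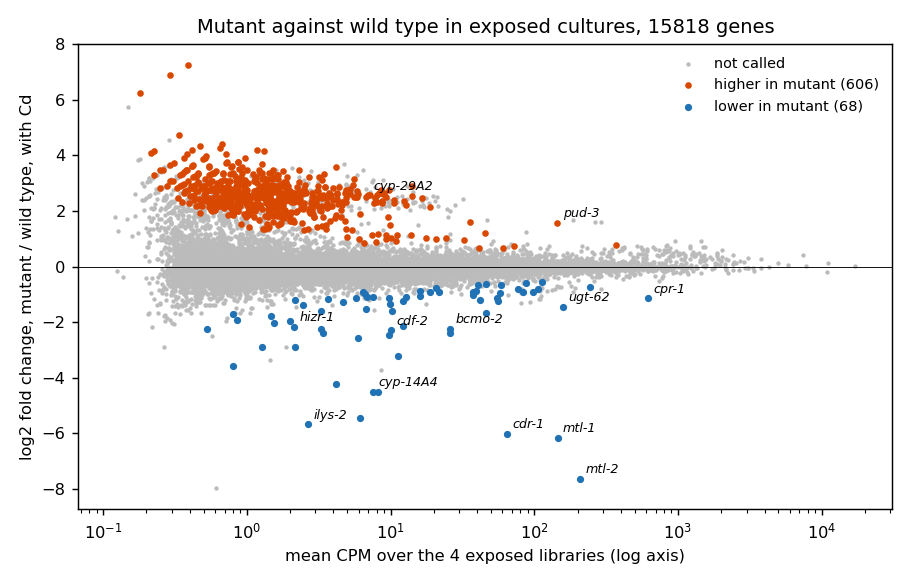
The log2 change of mutant against wild type with cadmium (y axis) is plotted against the mean CPM over the 4 exposed libraries (x axis, log scale) for all 15818 tested genes. Orange points are the 606 genes called higher and blue points the 68 called lower. The lower genes reach to high levels, with mtl-2, mtl-1 and cdr-1 lowest, while the higher ones crowd at low levels. The 3 orange points above 6 had 0 counts in both exposed wild-type libraries, so their fitted height is no bound.

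The 2 sets did not rest equally on the exposed wild-type replicate 1. Without that library, 19 of the 68 lower genes and 5 of the 606 higher genes were still called, although all 674 kept their direction. Without replicate 1 of the exposed mutant 25 lower and 111 higher genes were still called, and without its replicate 2 they were 26 and 173. Adding the median level of the sperm genes as a covariate left 17 lower and 3 higher genes. That covariate itself differs between the exposed genotypes, so the fit removes whatever moves with it. Across all 17 alternative fits, 14 lower genes passed in every one: mtl-1, cdr-1, cyp-13A4, cyp-13A7, cyp-14A4, T08G5.1, T16G1.6, mtl-2, asp-17, cdf-2, bcmo-2, ilys-2, thn-2 and C35E7.5. Among the higher genes, cyp-29A2, pgp-8 and the pseudogene WBGene00021055 did so. Also still called lower without the exposed wild-type replicate 1 were cyp-33C7, ugt-62, C29F7.2, mfsd-13.2 and F40F8.5, and clec-52 and the pseudogene WBGene00019169 higher. With the covariate the further ones were drd-50, F49F1.7 and mfsd-13.2, all lower. Any other call with cadmium named below was lost in both of these fits, whether or not this is repeated there.

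The targeted gene itself was the first check. Transcripts of hizr-1 (WBGene00013976, X:11318278-11321076, WBcel235) stood at 3.45 and 3.45 CPM in the exposed wild type and at 0.642 and 0.928 CPM in the exposed mutant. All mutant libraries, with or without cadmium, lay below all wild-type libraries. The change with cadmium was -2.16 (log2, SE 0.347, adjusted p = 0.00635). The call was lost with the sperm covariate and without replicate 1 of the exposed wild type or of the exposed mutant, and the adjusted p over the alternatives ran up to 0.1265.

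All 6 genes of the metal-response list, which holds hizr-1, were lower in the exposed mutant, with a median log2 change of -4.15. The list was drawn up knowing that these genes respond in these data, so the count is a description. The metallothionein mtl-2 (V:14018272-14018643) was at 410.9 and 414.4 CPM in the exposed wild type and at 2.51 and 1.55 CPM in the exposed mutant. These 2 mutant libraries were as low as the unexposed mutant ones at 2.38 and 1.48 CPM, and lower than the unexposed wild type at 8.16 and 13.6 CPM. The change with cadmium was -7.63 (log2, SE 0.347, adjusted p = 2.145e-05), the most negative of all tested genes that passed. The second metallothionein, mtl-1 (V:6691369-6691863), was at 282.5 and 289.8 CPM in the exposed wild type and at 4.24 and 3.71 CPM in the exposed mutant. Its unexposed libraries of both genotypes lay between 3.71 and 6.20 CPM, so only the exposed wild type was high. The log2 change of mtl-1 was -6.16 (SE 0.193), with the smallest p of the whole comparison (adjusted p = 5.232e-09).

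The cadmium-responsive gene cdr-1 (V:15921361-15922820), which encodes a protein related to glutathione S-transferases, showed the same pattern at 108.0 and 144.3 CPM against 2.06 and 1.80 CPM. Its log2 change was -6.02 (SE 0.279, adjusted p = 4.163e-07). The zinc transporter cdf-2 (X:12464648-12466878), which loads zinc into lysosome-related organelles of the gut, was at 15.3 and 17.9 CPM in the exposed wild type and at 3.63 and 3.15 CPM in the exposed mutant. All 4 unexposed libraries lay between 2.96 and 3.36 CPM, beside the exposed mutant. The log2 change of cdf-2 was -2.28 (SE 0.222, adjusted p = 0.000272). The zinc exporter ttm-1 (III:12952970-12966995) was at 44.26 and 53.96 CPM against 26.0 and 26.1 CPM, and here too the exposed mutant sat at the level of the unexposed cultures. Its log2 change was -0.91 (SE 0.163, adjusted p = 0.00908). The call, though not the direction, was lost with the sperm covariate and without the exposed wild-type replicate 1 or either exposed mutant library.

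**Figure D2:**
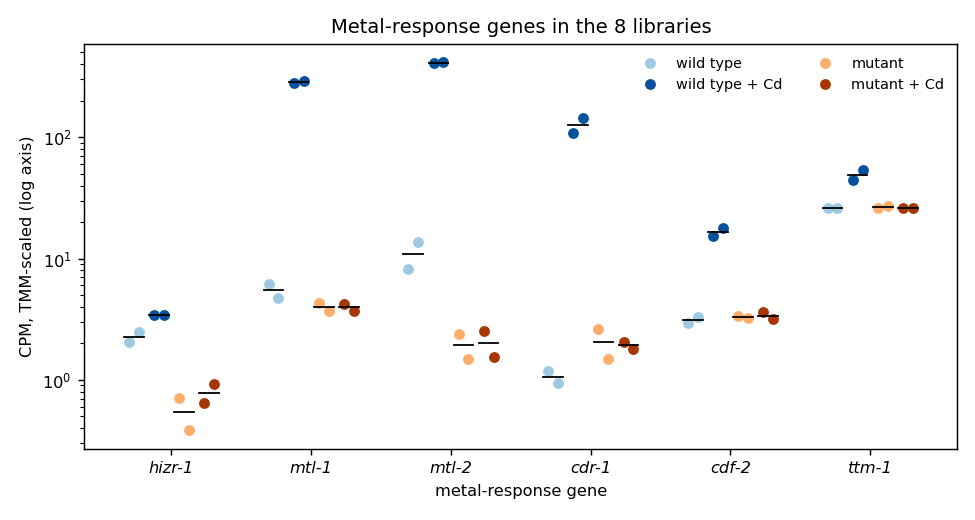
Levels of the 6 metal-response genes are shown in each of the 8 libraries in TMM-scaled CPM on a log axis, with points for libraries and bars for group means. The exposed wild type (dark blue) is highest for every gene, and the exposed mutant (dark orange) lies with the unexposed cultures for mtl-1, cdf-2 and ttm-1.

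Other genes of metal handling moved less. Of 19 tested zinc transporters cdf-2 and ttm-1 were the only ones called, and the list's median was -0.07, which was -0.131 and -0.0165 without replicate 1 and 2 of the exposed wild type. Among the 6 tested members of the CDR family cdr-1 alone was called, with a list median of -0.57 that was -0.135 without the exposed wild-type replicate 1. In the fit of the 4 exposed libraries and by DESeq2 2 of the 6 were lower, and with no filter 2 of 7. The list of cadmium detoxification, which covers phytochelatin synthesis and export, had 13 tested genes, of which 1, the drug exporter pgp-1, was lower. Of 15 tested genes of haem and iron handling 1 was lower. This was hrg-7, which encodes a secreted protein that signals between tissues in haem balance, at 82.2 and 67.8 CPM against 33.3 and 36.1 CPM (log2 change -1.11, SE 0.153, adjusted p = 0.00351). By outer coordinates C15C8.7 overlaps hrg-7, and whether the 2 share reads was not checked. Without the exposed wild-type replicate 1 the calls of hrg-7 and pgp-1 were lost.

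Cytochrome P450 enzymes, which oxidise foreign compounds, fatty acids and steroids, held the most lower calls of the enzyme lists by number, not by share. Gut proteases, with 4 lower of 20 tested, had a larger share, and over all tested genes it was 0.43%. Of 64 tested P450 genes 5 were lower and 1 was higher in the exposed mutant. The fit of the 4 exposed libraries called 10 of 62 lower and that with no filter 9 of 74, each with 1 higher. Over the 64 genes the median log2 change was -0.28. That median moved to -0.164 without replicate 1 of the exposed wild type, -0.481 without its replicate 2, -0.425 and -0.135 without replicate 1 and 2 of the exposed mutant, and -0.0147 with the sperm covariate. The gene cyp-14A4 was at 12.50 and 16.39 CPM in the exposed wild type and at 0.642 and 0.619 CPM in the exposed mutant. In the unexposed libraries of both genotypes it lay between 0.664 and 1.09 CPM. Its log2 change was -4.50 (SE 0.317, adjusted p = 2.145e-05). The gene cyp-13A4 stood at 11.8 and 19.7 CPM against 0.610 and 0.773 CPM, a log2 change of -4.52 (SE 0.338, adjusted p = 3.424e-05). Its neighbour cyp-13A7 stood at 6.97 and 9.001 CPM against 0.578 and 0.206 CPM, a log2 change of -4.22 (SE 0.391, adjusted p = 0.000208). In all 3 the exposed wild type was the high group and the other libraries lay together at 1.09 CPM or less. The other lower members were cyp-13A5 at -2.15 (adjusted p = 0.0051) and cyp-33C7 at -1.60 (adjusted p = 0.00407). Without the exposed wild-type replicate 1, 4 members remained lower.

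The single higher P450, cyp-29A2, behaved differently. It was at 2.29 and 1.75 CPM in the exposed wild type and at 12.5 and 11.5 CPM in the exposed mutant, and at 1.64 and 1.14 CPM against 13.5 and 16.3 CPM without cadmium. All mutant libraries were thus above all wild-type libraries in both conditions. The log2 change was 2.56 with cadmium (SE 0.255, adjusted p = 0.00033) and 3.40 without it (SE 0.268, adjusted p = 0.000152).

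Enzymes that conjugate foreign compounds showed single changes. Of 41 tested glutathione S-transferases, gst-33 was lower at 5.67 and 5.15 CPM against 1.25 and 0.979 CPM (log2 change -2.25, adjusted p = 0.00648). A second member, gst-38, was lower at 42.8 and 57.1 CPM against 30.7 and 18.7 CPM (log2 change -1.01, adjusted p = 0.0396). The gene gst-24 was higher at 7.04 and 6.18 CPM against 15.03 and 12.06 CPM (log2 change 1.04, adjusted p = 0.0194). None of the 3 was called without the exposed wild-type replicate 1. Of 62 tested UDP-glycosyltransferases, 2 were lower and none was higher. The more abundant, ugt-62, was at 228.5 and 231.2 CPM in the exposed wild type and at 88.1 and 81.1 CPM in the exposed mutant (log2 change -1.44, SE 0.134, adjusted p = 0.000208). It was called in each fit except the one with the sperm covariate. The second, ugt-1, changed by -1.24 (adjusted p = 0.00644) and was not called with the sperm covariate and without the exposed wild-type replicate 1 or either exposed mutant library. No gene was called among 35 dehydrogenases and flavin monooxygenases by edgeR, DESeq2 or limma-voom, with 3 at an unadjusted p under 0.05, while edgeR with no filter called 1 lower.

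ABC transporters, which pump substrates across membranes with ATP, were called in both directions, 2 lower and 6 higher of 45 tested. The lower pair were P-glycoproteins. Of these, pgp-9 was at 77.1 and 78.9 CPM against 32.4 and 33.7 CPM (log2 change -1.24, adjusted p = 0.00383). The other, pgp-1, was at 81.5 and 69.4 CPM against 43.9 and 34.9 CPM (log2 change -0.94, adjusted p = 0.0114). In the unexposed libraries pgp-9 lay between 30.2 and 40.4 CPM and pgp-1 between 32.9 and 48.9 CPM, below the exposed wild type. For neither gene did the test of interaction with cadmium, given below, pass. The higher P-glycoprotein, pgp-8, was at 1.57 and 1.21 CPM against 6.94 and 5.83 CPM (log2 change 2.19, SE 0.269, adjusted p = 0.00205). The other higher members were wht-4, wht-5, wht-8, abt-1 and abt-5, with log2 changes between 1.90 and 2.89. Without the exposed wild-type replicate 1, pgp-8 was the only member still called.

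Both carotenoid oxygenases, enzymes that cleave carotenoids towards retinoids, were lower in the exposed mutant. The gene bcmo-2 was at 42.3 and 42.8 CPM in the exposed wild type and at 9.09 and 8.97 CPM in the exposed mutant. The unexposed libraries lay between 8.39 and 11.7 CPM, at the level of the exposed mutant. The log2 change was -2.24 (SE 0.184, adjusted p = 7.47e-05). Its relative bcmo-1 was at 2.15 and 2.33 CPM against 0.289 and 0.309 CPM (log2 change -2.89, adjusted p = 0.00351). The call for bcmo-1, unlike that for bcmo-2, was lost with the sperm covariate and without replicate 1 of the exposed wild type or of the exposed mutant.

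Gut proteases were 4 lower and 1 higher of 20 tested, with a list median of -0.23, which was -0.123 without the exposed wild-type replicate 1. The cathepsin B-like protease gene cpr-1 was at 910.1 and 795.9 CPM in the exposed wild type and at 406.1 and 371.7 CPM in the exposed mutant (log2 change -1.13, SE 0.188, adjusted p = 0.00699). Its relatives cpr-5 and cpr-8 changed by -0.74 (adjusted p = 0.0122) and -0.92 (adjusted p = 0.0299). The aspartyl protease gene asp-17 was at 10.3 and 10.0 CPM against 1.80 and 1.60 CPM (log2 change -2.57, SE 0.246, adjusted p = 0.000252). Another aspartyl protease gene, asp-14, was higher at 271.8 and 281.3 CPM against 498.8 and 439.1 CPM (log2 change 0.76, adjusted p = 0.0146). It overlaps fah-1 by outer coordinates, and whether they share reads was not checked. Of these 5 calls, that of asp-17 alone was kept without the exposed wild-type replicate 1.

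Of 74 tested antimicrobial genes 3 were lower and 1 was higher, where the shares of all tested genes were 0.43% and 3.83%. The invertebrate lysozyme gene ilys-2 was at 5.29 and 5.15 CPM in the exposed wild type, from 155 and 115 counts, and at 0.161 and 0 CPM in the exposed mutant, from 5 and 0 counts. The unexposed libraries reached at most 0.143 CPM. The adjusted p was 0.000532, and the log2 change of -5.68 (SE 0.593) rests on those 5 counts. The thaumatin gene thn-2 was at 41.8 and 45.5 CPM against 8.42 and 8.45 CPM (log2 change -2.37, SE 0.262, adjusted p = 0.00111). The infection response gene irg-4 fell from 117.8 and 98.2 CPM to 64.2 and 51.4 CPM (log2 change -0.90, adjusted p = 0.00888), a call lost with the sperm covariate and without the exposed wild-type replicate 1 or the exposed mutant replicate 2. The higher gene, dod-24, changed by 0.67 (adjusted p = 0.0422) and was called under 7 of the 17 alternatives.

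Of 117 tested C-type lectins, 5 were higher and 1 was lower, and of 261 F-box, MATH and BATH genes 2 were higher. Over all tested genes the shares were 3.83% higher and 0.43% lower. The lectin clec-71 was lower at 6.69 and 4.75 CPM against 1.29 and 0.825 CPM (log2 change -2.40, adjusted p = 0.00423), a call lost without the exposed wild-type replicate 1. The lectin clec-52 was higher at 8.44 and 5.37 CPM against 32.96 and 28.15 CPM (log2 change 2.14, adjusted p = 0.00359) and was the only lectin still called without that library, while no F-box, MATH or BATH gene was. In the fit over all libraries, and by DESeq2 and limma-voom, no gene passed among 20 pals genes of the intracellular pathogen response, 12 cytosolic heat shock genes, 16 chaperones of the endoplasmic reticulum and mitochondria, 22 antioxidant enzymes or 33 proteasome subunits. With no filter edgeR called 1 pals gene and 1 heat shock gene lower, and 1 pals gene was called lower in the fit of the 4 exposed libraries and without replicate 2 of the exposed wild type or either unexposed wild-type library. The heat shock list had a median of -0.18 with 11 of 12 genes below 0, and the proteasome list one of 0.04, the latter turning to -0.26 with the sperm covariate and to -0.0974 without the exposed wild-type replicate 1, where the heat shock median was -0.107. Unadjusted p was under 0.05 for 1 heat shock gene, 1 antioxidant enzyme and 1 pals gene, for no chaperone or proteasome subunit, and for 1774 of all tested genes.

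Several lower genes were neighbours, a feature seen after their values. Of the 68, 19 lay in 8 runs within 20 kb of another lower gene. No background share of tested genes was computed for this count. One run on chromosome II, between 9793754 and 9805510, held cyp-13A4, cyp-13A5, cyp-13A7 and the pseudogene WBGene00014838. A run on chromosome V held mtl-2 and T08G5.1, a gene of no stated function at 11.2 and 12.7 CPM against 0.418 and 0.0515 CPM (log2 change -5.45, SE 0.443, adjusted p = 7.47e-05). Chromosome V also held gst-38 beside cdr-1, cpr-5 beside cpr-8, ZK218.5 beside ZK218.7, and T16G1.6, T16G1.5 and T16G1.4 in a row. The last 3 changed by -2.45, -1.97 and -1.61 in log2. A chromosome X run held C29F7.1 and C29F7.2, with changes of -1.08 and -1.21. Of these genes on V and X, the calls kept without the exposed wild-type replicate 1 were mtl-2, T08G5.1, cdr-1, T16G1.6 and C29F7.2, and those of ZK218.5 and ZK218.7 were lost. In all, chromosome V carried 31 of the 68 lower genes, which is 0.996% of the genes tested on it, against 0.43% of all tested genes.

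Without cadmium 14 genes were called higher (0.0885%) and 6 lower (0.0379%), together 0.126% of those tested. At an unadjusted p under 0.05 stood 1706 genes without cadmium and 1774 with it. The counts moved with the settings: without the unexposed wild-type replicate 2 there were 413 higher and 36 lower, without the filter 511 and 119, by DESeq2 80 and 18, and in an edgeR fit of the 4 unexposed libraries alone 0 and 0, with 1458 genes at an unadjusted p under 0.05. These libraries are not the ones of the exposed comparison. Called in both conditions, and in the same direction, were 17 genes. They make up 2.52% of the calls with cadmium and 85% of those without. The 4 lower in both were mtl-2, asp-17, the lipase gene lips-6 and C35E7.5. The last, at 72.3 and 68.1 CPM against 21.9 and 21.8 CPM with cadmium, and at 53.9 and 56.8 CPM against 21.3 and 23.6 CPM without, was at one level in all mutant libraries. Its log2 changes were -1.68 (SE 0.151, adjusted p = 0.000171) and -1.302 (SE 0.150, adjusted p = 0.00313).

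The 13 higher in both were cyp-29A2, pgp-8, gst-24, clec-52, the fatty acid elongase gene elo-7, pud-3, pud-4, cls-3, icmt-1, uggt-2, ZK616.8 and the pseudogenes WBGene00021055 and WBGene00019912. The gene pud-3, one of a family first named for proteins that rise in daf-2 mutants, was at 78.7 and 65.9 CPM against 237.9 and 194.5 CPM with cadmium (log2 change 1.58, SE 0.192, adjusted p = 0.00217). Without cadmium it was at 38.9 and 35.7 CPM against 292.5 and 199.3 CPM (log2 change 2.72, SE 0.200, adjusted p = 0.000152). The close copy pud-4 changed by 1.59 and 2.62. The 2 genes overlap by their outer coordinates, and whether they share reads was not checked. With cadmium the calls of pud-3, pud-4 and ZK616.8 were lost without the exposed wild-type replicate 1, with adjusted p over the alternatives up to 0.1965, 0.4035 and 0.2144. The genes cls-3 and uggt-2 likewise overlap ZC84.7 and hsp-70. On chromosome X, pgp-8 lies 453856 bases from hizr-1, and these were the only 2 genes called of 274 tested within 1 Mb of hizr-1.

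Whether the genotype difference itself changed with cadmium was tested as an interaction. It passed for 18 genes, 0.114% of those tested, with 17 (0.107%) more negative and 1 (0.00632%) more positive with cadmium. The 17 were cdr-1, cyp-13A4, cyp-13A7, mtl-1, mtl-2, cyp-14A4, bcmo-1, bcmo-2, cdf-2, T16G1.6, thn-2, cyp-33C7, ugt-1, cpr-1, irg-4, hrg-7 and ugt-62. All of these were also lower in the exposed mutant. Of the lower genes described above, ttm-1, pgp-1, pgp-9, ilys-2 and T08G5.1 did not pass the interaction test. Many of the interaction calls rested on single libraries: 5 of the 17 were kept without replicate 1 of the exposed wild type, 4 without its replicate 2, and 8 and 7 without replicate 1 and 2 of the exposed mutant. Those that passed in each of 16 alternatives were mtl-1, cdr-1, bcmo-2 and cyp-13A4. For mtl-1 the interaction was -5.71 (log2, SE 0.256, adjusted p = 3.92e-07) and for cdr-1 it was -6.98 (SE 0.405, adjusted p = 5.87e-06). In the second gene the mutant stood above the wild type without cadmium by 0.96 (log2), a difference that did not pass (adjusted p = 0.267). The positive one was cth-1, which encodes cystathionine gamma-lyase, an enzyme of cysteine synthesis. With cadmium cth-1 was at 27.8 CPM ± 1.34 (SD, n = 2) in the wild type and 27.8 CPM ± 1.89 (SD, n = 2) in the mutant, while without cadmium the mutant was lower by a log2 change of -1.69 (adjusted p = 0.00209). The interaction of cth-1 was lost without any one of 6 libraries, namely both exposed wild-type, both exposed mutant and both unexposed mutant ones. None of the 606 higher genes passed the interaction test. Their median log2 change was 2.52 with cadmium and 1.28 without, and 604 of them lay above 0 without cadmium.

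**Figure D3:**
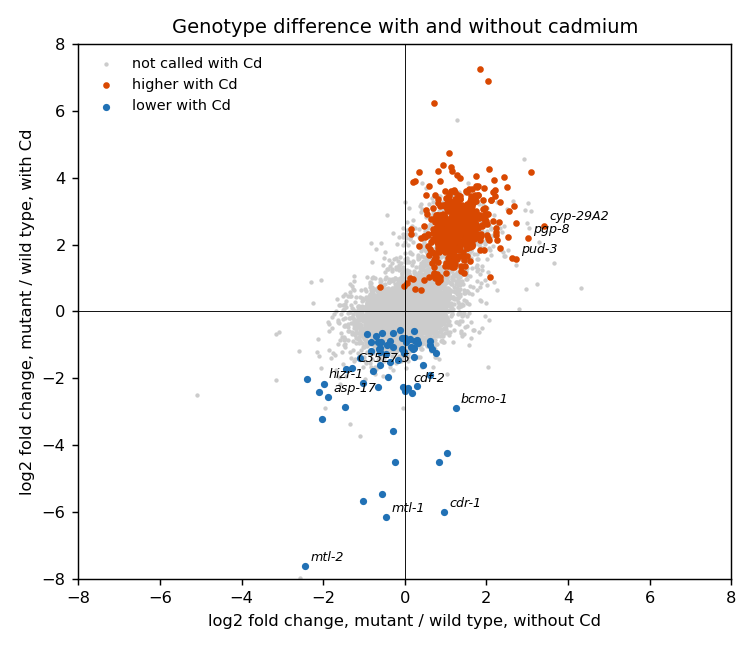
The log2 change of mutant against wild type without cadmium (x axis) is plotted against that with cadmium (y axis) for each tested gene. Orange genes were called higher and blue ones lower with cadmium. The higher genes lie almost all to the right of 0. The lower genes are spread on both sides of 0 on the x axis, 43 of 68 below it, and mtl-2 is the lowest.

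Sperm genes stood higher in the exposed mutant, and only some passed the test. Major sperm proteins build the crawling skeleton of nematode sperm, and the small sperm-specific proteins of the ssp, ssq and nspd families are made in the same cells. Background knowledge has it that genes active in sperm are rare on the X chromosome of C. elegans. Of 66 sperm structural genes 58 were tested, of which 10 were called higher and none lower. All 58 had a log2 change above 0, from 0.61 to 4.39, with a median of 2.68. The corresponding share of all tested genes above 0 was 48.3%. The summed level of the list was 52.7 and 126.2 CPM in the exposed wild type and 485.1 and 558.1 CPM in the exposed mutant. In the unexposed libraries it was 163.8 and 467.2 CPM in the wild type and 736.3 and 353.7 CPM in the mutant, where the groups overlap. Thus the level varied several-fold between parallel cultures of one group. Of the list's members msp-32 and msp-79 had 0 counts in all 8 libraries, and near-identical copies of this family share reads.

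Named sperm structural genes followed the list. The gene ssq-1 was at 3.45 and 6.81 CPM in the exposed wild type and at 23.6 and 32.6 CPM in the exposed mutant (log2 change 2.46, SE 0.449, adjusted p = 0.0285). The major sperm protein gene msp-63 had 2 and 3 counts against 51 and 21 counts (adjusted p = 0.045), and ssp-9 had 2 and 1 counts against 50 and 19 counts (adjusted p = 0.0111). The gene peel-1, whose product is a toxin that sperm carry into the embryo, was at 0.171 and 0.134 CPM against 0.803 and 0.825 CPM (log2 change 2.36, adjusted p = 0.0213). In each of these the groups with cadmium were apart. Without the exposed wild-type replicate 1 none of the 58 sperm structural genes was called, and their median log2 change was 2.16. Without replicate 1 of the exposed mutant none was called either, and without its replicate 2 there was 1. DESeq2 called 35 of them higher and limma-voom 33. With edgeR 31 of 64 tested were called when low counts were not filtered, 20 of 56 under a stricter filter, 50 of 57 in the fit of the 4 exposed libraries, and 27 without either unexposed wild-type library.

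The spermatogenesis list holds the spe and fer genes, known from spermatogenesis mutants, and also fog-1, fog-3, cpb-1 and rnp-8. It gave 13 higher and none lower of 32 tested, with a median log2 change of 1.73 and 27 of 32 above 0. The presenilin gene spe-4 was at 1.06 and 1.39 CPM in the exposed wild type and at 4.98 and 5.52 CPM in the exposed mutant. Its unexposed levels were 2.103 and 2.514 CPM in the wild type and 5.55 and 6.01 CPM in the mutant, so all mutant libraries were above all wild-type ones. The log2 change with cadmium was 2.11 (SE 0.271, adjusted p = 0.0025). The gene fer-1, of the dysferlin family and needed for fusion of sperm organelles with the cell surface, was at 1.16 and 0.985 CPM against 3.44 and 5.21 CPM (log2 change 1.98, adjusted p = 0.00708). The kelch protein gene spe-26, which R10H10.3 overlaps, had a mean of 1.09 CPM ± 0.482 (SD, n = 2) in the exposed wild type and 4.62 CPM ± 0.538 (SD, n = 2) in the exposed mutant (adjusted p = 0.00665). The myosin gene spe-15 was more abundant at 13.1 and 14.7 CPM against 27.1 and 28.3 CPM and changed less, by 0.99 (adjusted p = 0.00951). The list's summed level, 328.8 and 393.4 CPM against 406.9 and 464.2 CPM, moved less than that of the structural genes. Without the exposed wild-type replicate 1 none of this list was called, and its median was 1.49. Without replicate 1 or 2 of the exposed mutant 4 and 3 members were called.

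**Figure D4:**
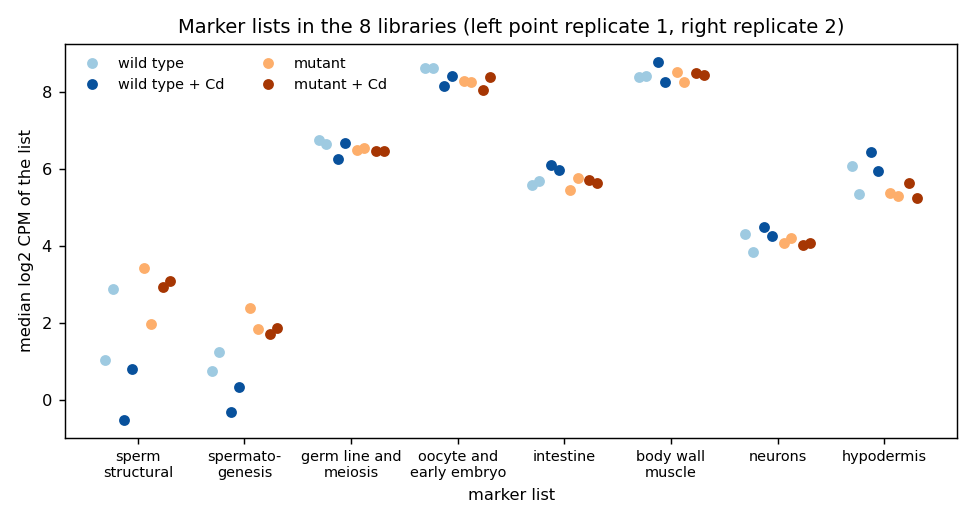
The median log2 CPM of the tested members of 8 marker lists is shown in each library, with replicate 1 on the left and replicate 2 on the right of each pair. The sperm structural list runs from -0.52 in the exposed wild-type replicate 1 to 3.42 in an unexposed mutant library. The spermatogenesis list runs from -0.32 to 2.38 in the same libraries, while the other germ line lists and the somatic lists vary less.

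The rest of the germ line and the soma gave almost no calls. Of 39 genes of germ line and meiosis none was called, with log2 changes between -0.12 and 0.29 and a median of 0.03. Of 30 genes of oocytes and early embryos none was called, with changes between -0.17 and 0.06. Neither did any of 12 zygotic embryo genes, 21 moulting genes or 6 vitellogenins, the yolk proteins of the adult intestine, pass the test. Among somatic lists the 21 body wall muscle, 15 pharynx, 25 neuron, 13 hypodermis and 12 somatic gonad genes had none called. Of 20 intestine genes 1 was lower, pgp-1, and the list's median was -0.09. At an unadjusted p under 0.05 stood 6 moulting and 6 hypodermis genes, 2 of the zygotic embryo, 1 of the pharynx and 1 of neurons, and none of the other lists of this paragraph with 0 calls. DESeq2 called 1 higher and 1 lower in the moulting list and likewise in the hypodermis list, limma-voom 1 higher in each, and neither called any gene of the others. In the fit of the 4 exposed libraries edgeR called 1 moulting gene higher and 5 lower, and 3 hypodermis genes higher. The male list had 6 of 14 members tested, none called, with a summed level of 14.5 and 9.76 CPM in the exposed wild type and 15.26 and 12.01 CPM in the exposed mutant.

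Medians of the uncalled lists still differed in sign. Neuron genes had a median of -0.25 with 22 of 25 below 0, and moulting genes one of -0.43. Ribosomal protein genes had a median of 0.37 with 82 of 83 above 0 and none called by edgeR or DESeq2, 1 of them at an unadjusted p under 0.05, while limma-voom called 1. The edgeR fit of the 4 exposed libraries called 36 of 82 higher, and that with no filter 3. In the fit with the sperm covariate these signs turned, to 0.36 for neurons, 0.46 for moulting and -0.835 for ribosomal proteins, so no direction is given for them. Without the exposed wild-type replicate 1 the neuron and moulting medians were -0.0453 and -0.0717. Histone genes had a median of 0.49 over 33 tested, 1 of them called (his-70, an H3 variant gene, at 0.102 and 0.224 CPM against 1.99 and 0.979 CPM), and the sign turned in the same fit to -1.13. The small medians of the germ line and intestine lists turned there too, to -0.02 and 0.03, and without the exposed wild-type replicate 1 they were -0.133 and 0.0378. The call of his-70 was lost with the sperm covariate, with a replicate block, without either exposed wild-type library and without the exposed mutant replicate 1, while 14 histone genes were called in the fit of the 4 exposed libraries.

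Remaining lists held few calls, against 3.83% of all tested genes higher and 0.43% lower. Of 45 tested genes of fat metabolism 2 were higher, the elongase genes elo-7 and elo-8, and of 16 genes of cysteine and hydrogen sulfide metabolism 1 was higher, cbs-2, which encodes a cystathionine beta-synthase. None of these 3 was called without the exposed wild-type replicate 1. Of 189 nuclear hormone receptors hizr-1 was the only one called, while the fit of the 4 exposed libraries called 3 lower. Among 147 cuticle collagens, which are made anew before each moult, none was called, while 62 had an unadjusted p under 0.05. Their log2 changes ran from -1.35 to 2.51, with 76 above 0 and a median of 0.06, which was 0.344 and -0.10 without replicate 1 and 2 of the exposed wild type. DESeq2 called 9 collagens higher and 6 lower, and limma-voom called 13 higher and none lower. With edgeR the counts were 29 and 7 in the fit of the 4 exposed libraries, 23 and 11 with no filter, 1 and 24 without replicate 2 of the exposed wild type, and 16 and 5 or 18 and 5 without replicate 1 or 2 of the unexposed wild type. None of 119 neuropeptide and insulin genes was called in the fit over all libraries or by DESeq2 or limma-voom, with 7 at an unadjusted p under 0.05, while the fit of the 4 exposed libraries called 2 higher and 1 lower and that with no filter 2 and 2. Of 63 hedgehog-related and patched-related genes none was called in the fit over all libraries or by limma-voom, with 9 at such a p, and DESeq2 called 1 lower. Both the fit of the 4 exposed libraries and that with no filter called 2 higher and 3 lower, and 3 were lower without replicate 2 of the exposed wild type.

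**Figure D5:**
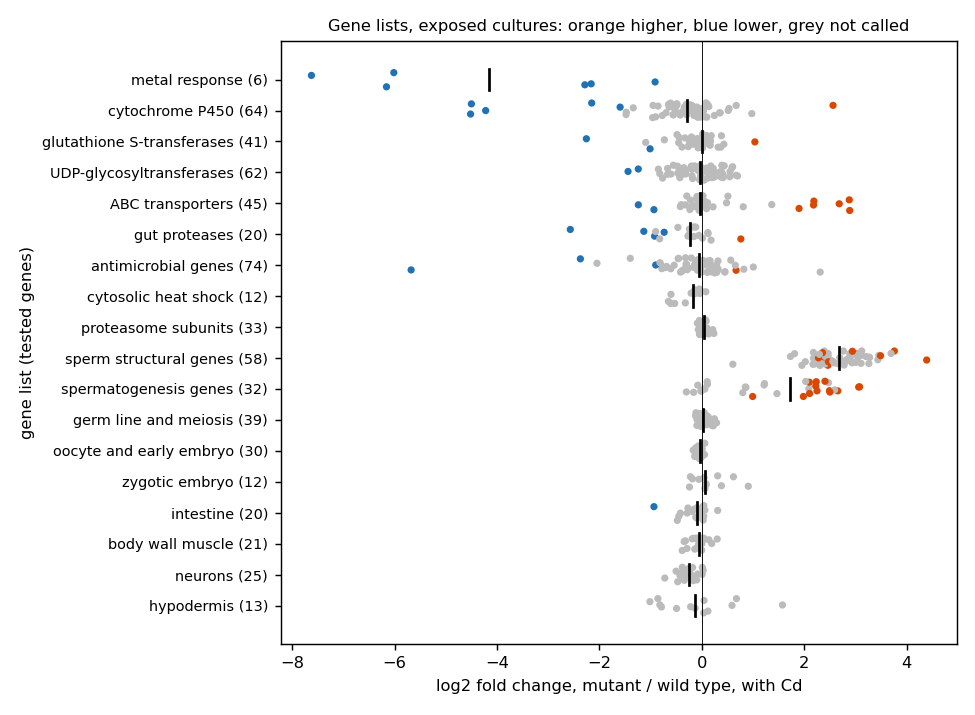
Each point is a tested gene of a list, at its log2 change of mutant against wild type with cadmium, and black bars are list medians. Blue genes were called lower, orange ones higher and grey ones not called. The metal-response list lies to the left with all 6 genes called, both sperm lists lie to the right, and germ line, oocyte, muscle and proteasome genes lie close to 0.

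Most of the 606 higher genes were in none of the lists: 46 were in any list, and 23 in a sperm or spermatogenesis list. Their summed level was 918.1 and 1109 CPM in the exposed wild type and 3156 and 3115 CPM in the exposed mutant. In the unexposed libraries it was 1173 and 1818 CPM in the wild type and 3493 and 2849 CPM in the mutant. That the exposed mutant lay above the exposed wild type follows from how these genes were chosen. Both unexposed mutant libraries were also above all wild-type libraries. In 501 of the 606 genes the exposed wild-type replicate 1 was below replicate 2. The sperm structural list, whose summed levels are given above, had a median log2 change of 2.68 with cadmium and 0.81 without, where 57 of its 58 tested genes lay above 0. Its part in the set was not tested. By chromosome, 5 of 2266 tested genes on X were called higher, 0.221%, against 601 of 13538 on the autosomes, 4.44%, and most of these calls were lost without the exposed wild-type replicate 1. Chromosome IV had the highest share, 171 of 2641 or 6.47%. The X-linked genes were pgp-8, asp-14, C11E4.7, abhd-3.2 and pes-8. Protein-coding genes made up 563 of the 606 and pseudogenes 40.

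Gene families by name, looked at after the values were seen, gave some high shares among the 606. Tau tubulin kinase genes (ttbk) had 5 of 8 tested members called higher, spe genes 12 of 27, neprilysin-like peptidase genes (nep) 8 of 20, phospholipid scramblase genes (scrm) 3 of 8, receptor L domain genes (irld) 4 of 11, wht transporters 3 of 8, ptp phosphatase genes 3 of 8, snf transporters 3 of 10 and ssp genes 3 of 10. The share over all tested genes was 3.83%, and that of the major sperm protein genes (msp) was 3.85%, 1 of 26. Of the 606 calls 5 were kept without the exposed wild-type replicate 1. The 8 higher genes with the smallest p included ant-1.4, an adenine nucleotide carrier of mitochondria. It was at 0.512 and 0.761 CPM against 6.23 and 6.34 CPM (log2 change 3.32, SE 0.390, adjusted p = 0.00185). A cation-transporting ATPase gene, catp-4, changed by 2.52 (SE 0.300, adjusted p = 0.00205). Neither was called without the exposed wild-type replicate 1, with adjusted p up to 0.136 and 0.135 over the alternatives.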

How the data were processed

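RNA from whole animals was depleted of ribosomal RNA, per the labels' protocols. Tools were STAR 2.0.4b, Subread and featureCounts 1.45 and the build WBcel235, per the submitters' processing notes. Not given in the sources used here are the annotation release, the strand setting and how multi-mapping reads were treated. The deposited counts were unscaled whole reads for each of 46726 genes, per the file headers. The deposited CPM and RPKM columns were the authors' scaled values, per the file headers, and recomputing both from the counts gave equal values for all 46726 genes in every library, within 1e-06 of the deposited value or of 1 where that was larger. Tests used the counts, and CPM in the text was recomputed with TMM-scaled library sizes. All value columns belong to a sample, so 0 were unused.

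Total counts ran from 17681352 to 29586507 per library, and ribosomal RNA took 1.84 to 3.93% of them. A floor of 3 counts is 0.101 to 0.170 CPM. It covers counting error only, since PCR copies cannot be told from separate molecules. Between libraries of a group the chi-square per degree of freedom ran from 24.01 to 61.63, and between any 2 libraries from 9.27 to 122. None agreed within sampling noise, and the closest pairs were not of one group. They were the exposed mutant replicate 2 with the unexposed mutant replicate 1 (9.27) and with the unexposed wild-type replicate 2 (11.34).

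Genes passing filterByExpr (minimum count 10, minimum total 15) numbered 15818. One edgeR 4.0.16 quasi-likelihood fit in R 4.3.3 over the 8 libraries, with TMM scaling and 4 group means, gave all contrasts, each tested 2-sided with Benjamini-Hochberg adjustment over all tested genes and a threshold of 0.05. Log2 changes are mutant over wild type, and each SE is the absolute change over the root of its F statistic. DESeq2 1.42.0 and limma 3.58.1 (voom) were alternatives.

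The members and gene lists were chosen with earlier results of these data known, so list counts are descriptions. Named genes are hizr-1 and the metal-response genes, the 12 largest changes and the 8 smallest p-values in each direction, up to 4 called genes a list, all interaction calls and calls within 1 Mb of hizr-1, and not all are printed. The other genes named, such as single pseudogenes, neighbours, chromosome X genes, families and genes called in both conditions, were chosen after their values were seen. Of the gene identifiers 46364 were in the WBcel235 annotation used for names and overlaps, 61.72% with the same coordinates. List symbols without a match were left out, which removed the whole mitochondrial genome list. A planned description of promoter motifs was not run.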

Additional observations from a re-analysis of the deposited data

Results flagged for a closer look

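The genotype difference itself differed between exposed and unexposed cultures by a test of that difference (the interaction term, edgeR's quasi-likelihood test, adjusted p under 0.05) for the following genes, with the log2 interaction given for each. Among metal-response genes cdr-1 had -6.98, mtl-1 -5.71, mtl-2 -5.18 and cdf-2 -2.37. Among P450 genes it was -5.36 for cyp-13A4, -5.26 for cyp-13A7, -4.26 for cyp-14A4 and -2.04 for cyp-33C7. The carotenoid oxygenases bcmo-1 and bcmo-2 had -4.13 and -2.54, and the glycosyltransferases ugt-1 and ugt-62 had -2.01 and -1.27. The defence genes thn-2 and irg-4 had -2.38 and -1.52, the protease gene cpr-1 had -1.81, hrg-7 had -1.31 and T16G1.6 had -2.61. The single positive value was 1.69 for cth-1. With 2 libraries in each group, no library was tested for standing apart from its own group.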

How the results depend on the processing

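With cadmium, the main counts of 606 higher and 68 lower genes became 1029 and 159 when low counts were not filtered, 3 and 17 under the sperm covariate, and 1131 and 157 when the fit held only the 4 exposed libraries. Leaving out each library in turn gave 5 to 938 higher and 19 to 126 lower. The extremes of low counts came without WT_Cd replicate 1 (5 and 19), without mutant_Cd replicate 1 (113 and 25) and without mutant_Cd replicate 2 (173 and 26). Without WT_noCd replicate 1 there were 926 and 118, and without WT_noCd replicate 2 there were 938 and 121. Leaving out WT_Cd replicate 2 gave 126 lower genes. WT is the wild type, Cd and noCd mark exposed and unexposed groups, and a group left with 1 library is assumed to vary like the others. RLE size factors, the stricter filter (CPM of at least 1 in at least 2 libraries), DESeq2, voom and TMM factors from genes outside the germ line and ribosomal lists left these counts within 1.5 times. All 606 and 68 genes kept their sign in each of the 17 alternatives that tested them.

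Without cadmium, the counts of 14 higher and 6 lower became 511 and 119 with no filter, 80 and 18 with DESeq2, 76 and 41 with the sperm covariate, 5 and 3 with TMM outside those lists, and 0 and 0 with only the 4 libraries, where 1458 genes had an unadjusted p under 0.05. Voom gave 7 higher. Leaving out a library gave 6 to 413 higher and 3 to 36 lower, with the highest values without WT_noCd replicate 2. The interaction, 1 higher and 17 lower, became 55 and 35 with no filter. It gave 4 higher with DESeq2 and 0 with TMM outside those lists. Leaving out a library gave 0 to 50 higher, the most without WT_noCd replicate 1, and 4 to 21 lower, the fewest without WT_Cd replicate 2. Cutting low counts changes which genes are tested, and leaving out libraries reduces the samples. For the other settings the cause was not tested.

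The replicate numbers were not used as pairs in the main fit. Deviations of same-numbered libraries correlated between -0.431 and 0.42 across groups, and 2 libraries a group cannot settle whether they pair. With a replicate block, 491 genes were higher and 71 lower with cadmium, 7 and 5 without it, and 1 and 14 in the interaction. Low-count genes limit what depth can show, the floor of 3 counts being 0.101 to 0.170 CPM.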
